A study of Rattus norvegicus with 150 samples.

Results

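Pdk4, Ppargc1a, Slc2a4 and Ucp3 are 4 genes through which skeletal muscle sets its choice between glucose and fatty acids. They were taken by name and identifier from the 32545 genes counted in rat gastrocnemius, a calf muscle. No measured value entered the rule, but earlier results of these data were known when they were chosen. The rows were ENSRNOG00000009565 for Pdk4, ENSRNOG00000004473 for Ppargc1a, ENSRNOG00000017226 for Slc2a4 and ENSRNOG00000017716 for Ucp3. All 150 libraries came from male Sprague-Dawley rats that arrived at about 30 days of age and spent at least 2 weeks in the vivarium before surgery. Every rat, controls included, received 4 metal pellets, 2 in each hind limb muscle. The metals were tantalum (Ta, the surgical sham), nickel (Ni), cobalt (Co), depleted uranium (DU) and one that the labels call P, where the design text names lead (Pb) among the sequenced metals. Muscle was taken at 1, 3, 6 or 12 months after surgery, with Ni at 1, 3 and 6 months. This gives 19 groups, 17 of 8 libraries and 2 of 7 (Ta at 1 month, Co at 6 months). No group lacks an implant, so each metal is read against Ta, not against untouched muscle. Each time was a separate cohort of rats, so time since surgery, the age of the rats and the cohort cannot be told apart. The series design gives 8 rats per group, but nothing in the labels says that each library is 1 rat. The p-values therefore reflect only how these libraries vary. Rats had free access to chow, and neither the hour of collection nor the fed or fasted state is stated in the labels, so their part in any value below was not tested.

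Muscle burns glucose after a meal and fatty acids during fasting and long exercise. Slc2a4 encodes GLUT4, the transporter that insulin and contraction move to the surface of the fibre to let glucose in. Pdk4 encodes a kinase that switches off pyruvate dehydrogenase, the enzyme that passes glucose carbon into the mitochondrion. Its mRNA is known to climb in fasted muscle. Ucp3 encodes an uncoupling protein of the inner mitochondrial membrane whose mRNA is also known to climb with fasting and with fatty acid supply. Ppargc1a encodes PGC-1alpha, a coactivator that drives mitochondrial genes and is induced by endurance exercise. Pdk4 and Ucp3 are known targets of the fatty acid receptors of the PPAR family, and Slc2a4 is among the genes PGC-1alpha can raise.

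The promoters of Pdk4 and Ucp3 are shown because these genes moved together between libraries. Each sequence is the 250 bases before the RefSeq start of the gene in the GRCr8 assembly, 5′ to 3′ on the strand of the gene, and capitals mark AGGTCA, the hexamer that nuclear receptors read. Pdk4 lies on the minus strand at chr4:34568330-34568579 and Ucp3 on the plus strand at chr1:164227660-164227909. The counts were made on another build, Rnor_6.0.
Pdk4: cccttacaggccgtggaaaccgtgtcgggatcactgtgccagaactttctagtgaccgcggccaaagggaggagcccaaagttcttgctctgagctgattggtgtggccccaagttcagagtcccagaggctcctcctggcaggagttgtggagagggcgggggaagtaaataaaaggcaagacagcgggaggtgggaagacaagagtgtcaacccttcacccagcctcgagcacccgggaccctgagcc
Ucp3: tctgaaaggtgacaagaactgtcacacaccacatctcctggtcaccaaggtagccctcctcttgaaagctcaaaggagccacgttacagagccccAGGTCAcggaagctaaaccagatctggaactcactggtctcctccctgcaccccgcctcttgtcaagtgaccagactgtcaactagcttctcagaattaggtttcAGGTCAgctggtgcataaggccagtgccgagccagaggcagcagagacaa
AGGTCA stood at 155 to 150 and at 50 to 45 bases before the start of Ucp3, on the plus strand both times. On either strand, 14.1% of 33469 rat promoters of this length hold it. The promoters of Pdk4 and Ppargc1a held no match to it. None of the 3 promoters matched the DR1 element of PPARs (that hexamer repeated after 1 base, 0.0508% of promoters), TCAAGGTCA (an ERR site that ends in the same hexamer, 0.388%), GTAAACA (FOXO, 3.21%), CACGTG (E-box, 5.59%) or ACANNNTGT (glucocorticoid receptor, 5.81%). A match or its absence describes these letters and says nothing of binding.

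Library totals ran from 12674115 to 21921859 counts, and levels below are in CPM, counts scaled to library size with edgeR's TMM factors. In 10 libraries the median Spearman correlation with all other libraries was under 0.9, computed without the 4 fuel genes. They were Ni at 1 month replicate 8, Co at 1 month replicates 1 and 3, Co at 3 months replicates 2, 3, 6 and 8, Co at 6 months replicate 1, DU at 3 months replicate 2 and DU at 12 months replicate 6. Slc2a4, Ppargc1a and Ucp3 each lay below all libraries of the group that did not stand apart in 8 of these 10, and Pdk4 in 5. DU at 3 months replicate 2 held 2 counts of Slc2a4 and 1 of Ucp3. Results are given with and without these libraries where they change. The identifiers in the counts could not be paired with symbols beyond the 4 genes, so markers of muscle fibres and other cell types, and the other genes of fuel use, were not analysed here. In whole muscle, fewer fibres and less mRNA per fibre cannot be told apart.

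Pdk4 varied widely between libraries of the same group, from 10.9 to 520 CPM with Ni at 3 months for instance. With Ta it averaged 226 ± 164 CPM at 1 month (SD, n = 7), 182 ± 160 at 3, 305 ± 131 at 6 and 279 ± 88.0 at 12 months (SD, n = 8 each). With Co it averaged 125 ± 86.6 CPM at 1 month, 101 ± 118 at 3, 346 ± 205 at 6 (n = 7) and 374 ± 168 at 12 months (SD, n = 8 otherwise). The lowest group means for this kinase gene thus lay at the early times and the highest at 6 and 12 months. With Ni it averaged 175 ± 59.7, 179 ± 168 and 363 ± 169 CPM at 1, 3 and 6 months (SD, n = 8 each). With P the means were 252 ± 116, 185 ± 162, 312 ± 220 and 414 ± 263 CPM at 1, 3, 6 and 12 months, and with DU 187 ± 110, 137 ± 74.3, 398 ± 219 and 249 ± 123 CPM (SD, n = 8 each). In descending order the group means ran P 12, DU 6, Co 12, Ni 6, Co 6, P 6, Ta 6, Ta 12, P 1, DU 12, Ta 1, DU 1, P 3, Ta 3, Ni 3, Ni 1, DU 3, Co 1 and Co 3 months. No neighbours in this order differed by more than the larger of their SDs, and the widest of the 18 gaps was 0.515 SD.

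Ucp3 had 4 of its 5 highest group means with Ta, though by median Ta at 1 month ranked 9 of 19 (168 CPM). The Ta means were 231 ± 153 CPM at 1 month (SD, n = 7), 263 ± 191 at 3, 233 ± 94.0 at 6 and 223 ± 74.9 at 12 months (SD, n = 8 each). With Ni they were 111 ± 43.4, 192 ± 84.7 and 285 ± 96.5 CPM at 1, 3 and 6 months (SD, n = 8 each), which took Ni from the lowest place among the 19 groups to the highest. With Co they were 117 ± 68.3 CPM at 1 month, 137 ± 72.8 at 3, 155 ± 64.6 at 6 (n = 7) and 218 ± 95.8 at 12 months (SD, n = 8 otherwise). This uncoupling protein gene had means between those extremes with the other metals. With P they were 165 ± 78.4, 164 ± 48.2, 197 ± 113 and 197 ± 148 CPM at 1, 3, 6 and 12 months, and with DU 148 ± 77.0, 115 ± 68.7, 197 ± 96.5 and 162 ± 79.7 CPM (SD, n = 8 each). The order ran Ni 6, Ta 3, Ta 6, Ta 1, Ta 12, Co 12, P 12, DU 6, P 6, Ni 3, P 1, P 3, DU 12, Co 6, DU 1, Co 3, Co 1, DU 3 and Ni 1 month, again with no gap over 1 SD (widest 0.328 SD).

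Slc2a4 was the steadiest of the 4 genes outside the libraries that stood apart. With Ta it averaged 481 ± 35.7 CPM at 1 month (SD, n = 7), 453 ± 53.6 at 3, 509 ± 66.6 at 6 and 547 ± 51.1 at 12 months (SD, n = 8 each). Ni gave 482 ± 66.8, 529 ± 84.5 and 476 ± 68.2 CPM at 1, 3 and 6 months, and P 490 ± 43.8, 552 ± 72.8, 549 ± 76.7 and 519 ± 96.9 CPM at 1, 3, 6 and 12 months (SD, n = 8 each). In these 3 metals the SD of the glucose transporter gene never passed 100 CPM. With Co the means were 447 ± 158 CPM at 1 month, 380 ± 203 at 3, 596 ± 48.7 at 6 (n = 7) and 521 ± 126 at 12 months (SD, n = 8 otherwise), and with DU 499 ± 89.4, 462 ± 196, 563 ± 59.2 and 391 ± 209 CPM at the 4 times (SD, n = 8 each). The wide SDs belong to groups with 1 or more low libraries. With Co at 12 months, replicate 8, which did not stand apart, held 274 CPM. At 3 months with Co, replicates 2, 3, 6 and 8 held 119, 291, 197 and 172 CPM, and the other 4 held 545 to 580 CPM. At 3 months with DU, replicate 2 held 0.165 CPM and the others 400 to 583 CPM, and at 12 months replicates 5 and 6 held 145 and 20.1 CPM. Without the libraries that stood apart, Slc2a4 with Co at 3 months averaged 564 ± 15.6 CPM (SD, n = 4), the second highest of the 19 group means in place of the lowest. The order ran Co 6, DU 6, P 3, P 6, Ta 12, Ni 3, Co 12, P 12, Ta 6, DU 1, P 1, Ni 1, Ta 1, Ni 6, DU 3, Ta 3, Co 1, DU 12 and Co 3 months, with no gap over 1 SD (widest 0.565 SD).

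Ppargc1a was counted 14 to 919 times per library, so counting error weighs more on it than on abundant genes. With Ta the coactivator gene averaged 11.8 ± 2.74 CPM at 1 month (SD, n = 7), 10.9 ± 4.60 at 3, 17.6 ± 5.85 at 6 and 17.4 ± 8.73 at 12 months (SD, n = 8 each). With Ni it averaged 16.7 ± 8.98, 11.1 ± 2.98 and 15.2 ± 2.26 CPM at 1, 3 and 6 months, and with P 20.04 ± 8.70, 19.9 ± 16.2, 15.2 ± 3.20 and 18.9 ± 5.12 CPM at 1, 3, 6 and 12 months (SD, n = 8 each). With Co it averaged 9.40 ± 6.10 CPM at 1 month, 8.69 ± 6.51 at 3, 20.7 ± 9.88 at 6 (n = 7) and 15.4 ± 5.18 at 12 months (SD, n = 8 otherwise), and with DU 14.7 ± 4.58, 14.4 ± 6.86, 15.5 ± 4.73 and 12.0 ± 7.09 CPM at the 4 times (SD, n = 8 each). Co thus held both the highest group mean and the 2 lowest, which rests on libraries that stood apart. Without them the Ppargc1a means with Co were 11.5 ± 5.55 CPM at 1 month (SD, n = 6), 13.4 ± 5.36 at 3 (n = 4) and 17.1 ± 2.39 at 6 months (n = 6), and the highest group was P at 1 month and the lowest Ta at 3 months. The order ran Co 6, P 1, P 3, P 12, Ta 6, Ta 12, Ni 1, DU 6, Co 12, P 6, Ni 6, DU 1, DU 3, DU 12, Ta 1, Ni 3, Ta 3, Co 1 and Co 3 months, with no gap over 1 SD (widest 0.335 SD).

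**Figure D1:**
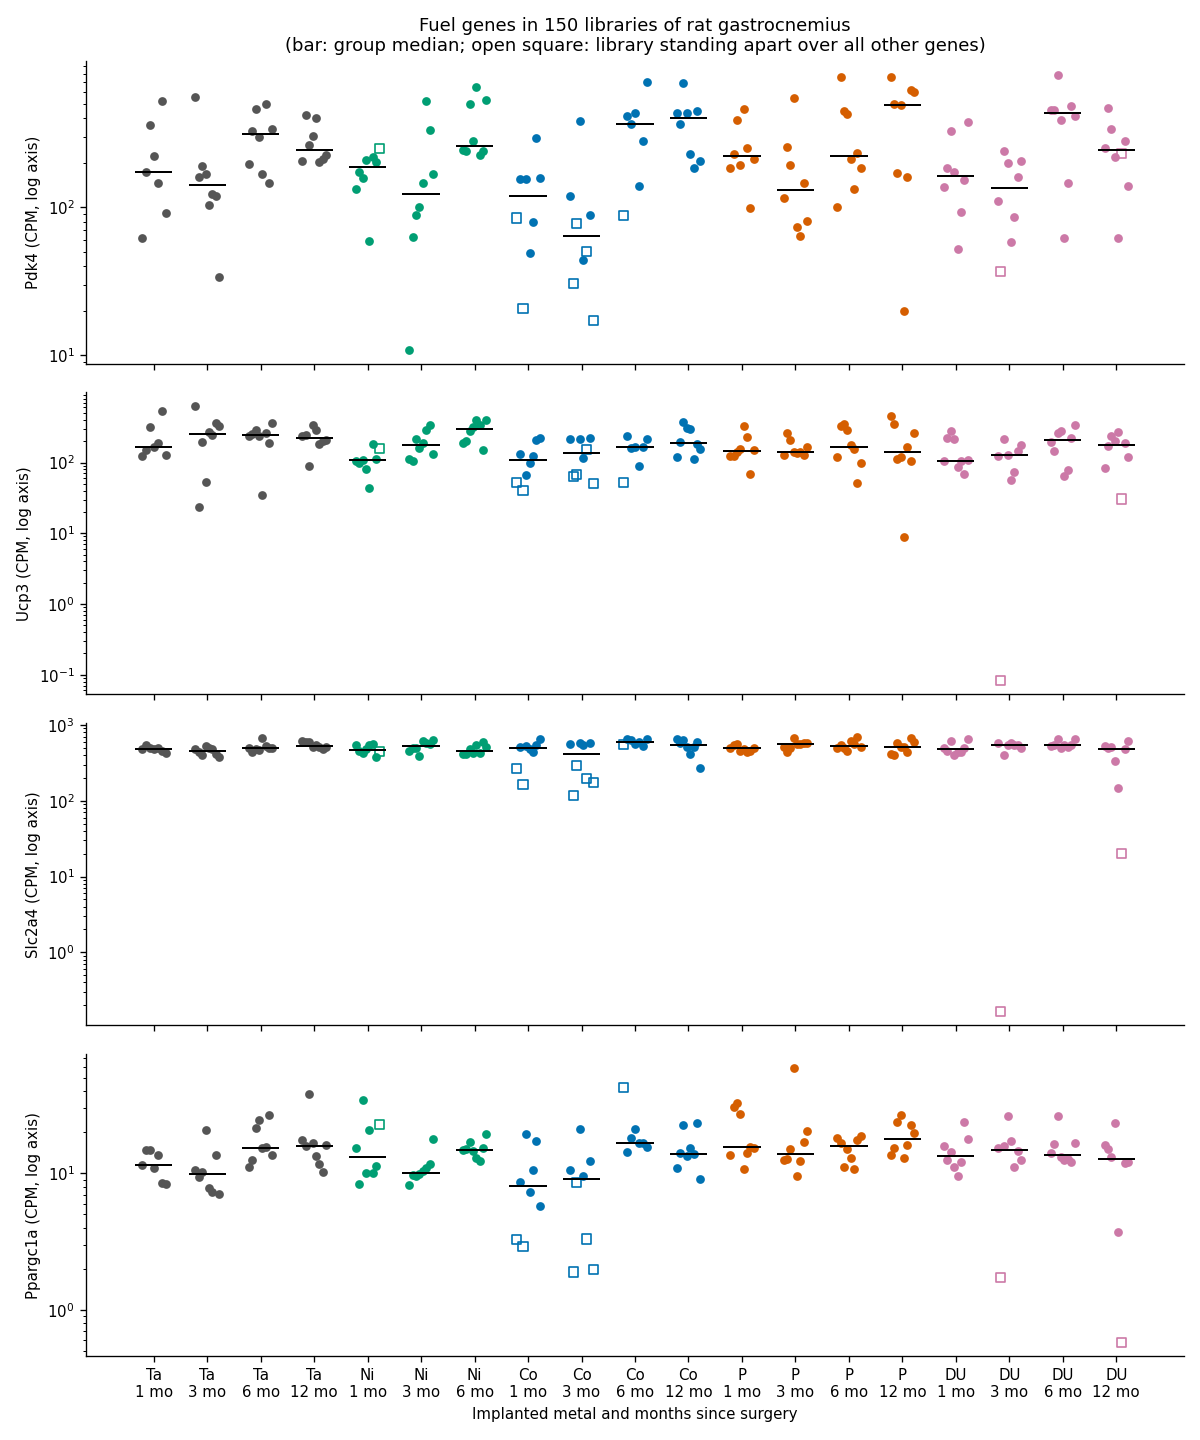
CPM of each gene (log axis) in all 150 libraries, by metal and months since surgery. Points are libraries, bars are group medians, and open squares are the 10 libraries that stood apart. Slc2a4 stays near 500 CPM except in some Co and DU libraries, whereas Pdk4 and Ucp3 spread widely in most groups.

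The first comparison asked whether embedded metal changed these genes relative to the Ta sham of the same time. None of the 60 tests (4 genes in 15 comparisons) passed an adjusted p of 0.05 in edgeR's quasi-likelihood test, and 5 had an unadjusted p under 0.05. Among all genes the share called was 6.44% for Co at 3 months, 0.338% for P at 3 months, 2.38% for P at 12 months and 0.0083% for Co at 12 months, 0.00826% for DU at 12 months and 0 in the other 10 comparisons. The groups overlapped in every one of the 60 tests. DESeq2 also called none, and limma's voom with library weights called 1, Ppargc1a for DU at 3 months (log2 fold change 0.64, adjusted p = 0.0225, against 0.39 and 0.503 in edgeR).

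Ucp3 had the most uniform direction. Its log2 fold change was below 0 in 14 of 15 comparisons, with a median of -0.49, and above 0 for Ni at 6 months only (0.27 ± 0.32 SE, adjusted p = 0.915). At 1 month the Ta libraries ran from 122 CPM through a median of 168 to 543 CPM, and the Ni libraries from 43.9 through 108 to 183 CPM. Most Ni libraries lay below the lowest Ta library, and the ranges overlapped. That log2 difference was -1.03 ± 0.34 (SE, edgeR adjusted p = 0.404, unadjusted 0.00732). With Co at 1 month, where Ucp3 ran from 39.7 through 110 to 223 CPM, it was -0.97 ± 0.41 (SE, edgeR adjusted p = 0.279). With DU at 3 months it was -1.21 ± 0.77 (SE, edgeR adjusted p = 0.322), from 0.0824 through 126 to 214 CPM against 23.4 through 255 to 627 CPM with Ta, and -1.02 (adjusted p = 0.183) without replicate 2. The comparisons of each time share their Ta libraries, so the 14 are not separate observations of a low Ucp3.

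The remaining 3 genes showed no common direction against Ta. Pdk4 ranged from -0.85 ± 0.51 with Co at 1 month (SE, edgeR adjusted p = 0.476) to 0.57 ± 0.49 with P at 12 months (adjusted p = 0.572), with 8 of 15 below 0. Slc2a4 ranged from -0.48 ± 0.42 with DU at 12 months (SE, edgeR adjusted p = 0.589) to 0.26 ± 0.12 with P at 3 months (adjusted p = 0.183). Ppargc1a ranged from -0.53 ± 0.46 with DU at 12 months (SE, edgeR adjusted p = 0.585) to 0.85 ± 0.35 with P at 3 months (adjusted p = 0.154). In the latter the P libraries ran from 9.60 through 13.9 to 59.2 CPM and the Ta libraries from 7.02 through 9.85 to 20.9 CPM. A single P library, replicate 4, lay above every Ta library. At 1 month the P libraries ran from 10.7 through 15.5 to 32.9 CPM and the Ta libraries from 8.37 through 11.5 to 14.8 CPM, a difference of 0.76 ± 0.24 (SE, edgeR adjusted p = 0.496, unadjusted 0.00538).

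**Figure D2:**
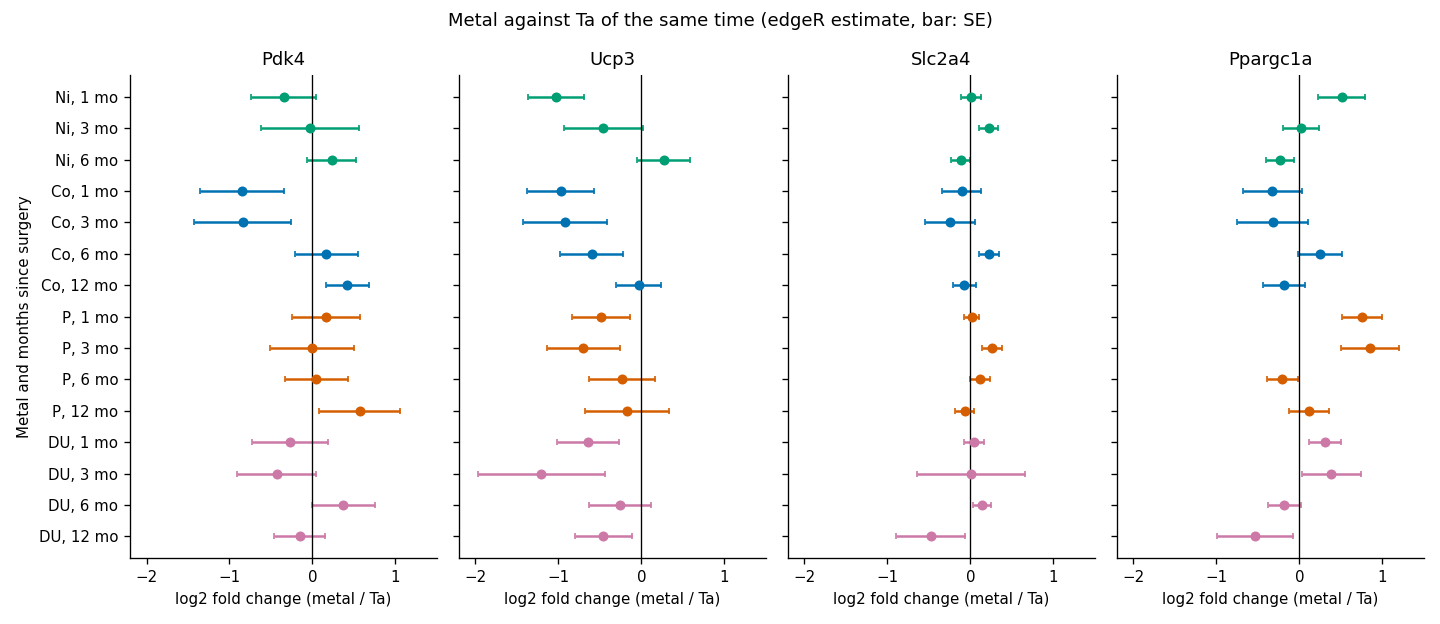
Log2 fold change of each gene, metal over Ta of the same time, in 15 comparisons per gene. Points are edgeR estimates and bars their SE. Ucp3 lies below 0 in 14 of 15 and none of the 60 passes an adjusted p of 0.05.

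The second comparison followed each metal over time. Of 56 tests of a later time against 1 month within a metal, 3 passed in edgeR, all of them higher at the later time. Among all genes 3.33% were called for Ni at 6 months, 22.5% for Co at 6 months and 16.1% for Co at 12 months, so calls with Co were common. In the other 11 comparisons it was 0.031%, 14.3% and 9.93% with Ta at 3, 6 and 12 months, 4.73% with Ni at 3 months, 0 with Co at 3 months, 2.55%, 8.27% and 10.7% with P, and 3.33%, 0.0694% and 2.54% with DU. Ucp3 with Ni ran from 43.9 through 108 to 183 CPM at 1 month and from 150 through 297 to 402 CPM at 6 months. All but 1 library at 6 months lay above all libraries at 1 month. The log2 rise was 1.32 ± 0.27 (SE, edgeR adjusted p = 0.0124). It passed in all 24 fits that left out 1 library (adjusted p from 0.00615 to 0.0266), and in 1 model of all 150 libraries the adjusted p was 0.0853. At 3 months Ucp3 with Ni stood at 0.77 ± 0.27 above 1 month (SE, edgeR adjusted p = 0.0801).

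Pdk4 with Co ran from 20.9 through 120 to 296 CPM at 1 month, from 88.4 through 364 to 701 CPM at 6 months and from 185 through 399 to 690 CPM at 12 months. Most later libraries lay above most libraries at 1 month, and the ranges overlapped. The rises were 1.47 ± 0.53 at 6 months (SE, edgeR adjusted p = 0.0465) and 1.58 ± 0.52 at 12 months (SE, edgeR adjusted p = 0.0375). Both calls lay close to the threshold. Leaving out 1 Co library kept the call at 6 months in 12 of 31 fits (log2 1.21 to 1.77, adjusted p 0.0234 to 0.104) and at 12 months in 22 of 31 (1.40 to 1.89, adjusted p 0.0165 to 0.0839). The 6 month call was lost, at adjusted p 0.0503 to 0.104, without 1 month replicates 1 to 6 or 8, 3 month replicates 3 or 7, 6 month replicates 2, 3, 4, 6 or 7, or 12 month replicates 1, 2, 4, 5 or 7. The 12 month call was lost, at adjusted p 0.0537 to 0.0839, without 1 month replicates 1, 3, 5 or 6, or 12 month replicates 1, 2, 3, 4 or 7. Without all Co libraries that stood apart the differences were 1.37 (adjusted p = 0.0847) and 1.32 (adjusted p = 0.0648).

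The estimate for Pdk4 at 6 months against 1 month lay above 0 in each of the 5 metals. The log2 differences were 0.42 ± 0.42 with Ta, 1.01 ± 0.46 with Ni, 0.31 ± 0.52 with P and 1.09 ± 0.44 with DU (SE), beside the value for Co, and only that for Co passed. Averaged over the 5 metals in 1 model of all libraries, a contrast added after the data were seen, the rise was 0.86 ± 0.22 (SE, edgeR adjusted p = 0.00101), where 40.3% of all genes were called. At 12 months, averaged over 4 metals, it was 0.76 ± 0.25 (SE, edgeR adjusted p = 0.0109), where 34.2% were called. Pooled over metals, Pdk4 ran from 20.9 through 174 to 526.3 CPM at 1 month (39 libraries), from 10.9 through 117 to 560 at 3 months (40), from 61.6 through 330 to 780 at 6 months (39) and from 19.9 through 272 to 758 CPM at 12 months (32). The medians of the later times lay well above those of the first 2, and the ranges overlapped almost wholly. The 10 libraries that stood apart lie mostly at 1 and 3 months, and without them the rises were 0.88 (adjusted p = 0.000714) and 0.72 (adjusted p = 0.0138). Ta alone gave 0.31 ± 0.42 at 12 months (SE, edgeR adjusted p = 0.695).

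Ucp3 stood 0.48 ± 0.20 higher at 6 months than at 1 month over the metals (SE, edgeR adjusted p = 0.0508), which became 0.49 (adjusted p = 0.0235) without the 10 libraries. Averaged over its 4 times, Ucp3 was lower with Co than with Ta, by a log2 difference of -0.64 ± 0.23 (SE, edgeR adjusted p = 0.0324), where 20.6% of all genes were called. Without the 10 libraries, 7 of which are Co, this was -0.42 (adjusted p = 0.380). The corresponding values were -0.64 ± 0.23 with DU (SE, edgeR adjusted p = 0.0716), -0.41 ± 0.26 with Ni and -0.40 ± 0.23 with P, none of which passed. These averages against Ta called 5.57%, 0.0135% and 0.434% of all genes with DU, Ni and P. Slc2a4 passed on no average, and its values lay between -0.07 ± 0.15 with DU against Ta and 0.15 ± 0.14 at 6 months against 1 month (SE). At 3 months against 1 month, where 11.6% of all genes were called, none of the 4 passed.

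Ppargc1a passed the test of any difference from Ta over all metals and times (edgeR adjusted p = 0.0174), as did 53.5% of all genes, and Pdk4 (0.631), Slc2a4 (0.910) and Ucp3 (0.214) did not. None of the 4 passed for a metal effect that differs over time (39.9% of genes did), and the adjusted p of Ppargc1a was 0.0739, or 0.0302 with the replicate number as a block. Over all the times of a metal, 4 of 20 tests passed in edgeR. They were Pdk4 with Co (adjusted p = 0.00715), Ppargc1a with Co (0.0491), Ucp3 with Ni (0.0113) and Ppargc1a with Ta (0.0418), against 39.1%, 39.1%, 18.2% and 35.3% of all genes. Pdk4 with Ta depended on the method, with an adjusted p of 0.381 in edgeR and 0.00414 in voom with library weights. None passed with P or DU, where 12.3% and 7.39% of genes did, although Pdk4 with DU went from an adjusted p of 0.0847 to 0.0334 with the replicate number as a block, and none passed the test of time in Ta within the model of all groups (26.5% of genes). Without the libraries that stood apart the Co values were 0.0745 for Pdk4 and 0.439 for Ppargc1a. For Ppargc1a, leaving out Co at 6 months replicate 1 alone gave 0.150. That library held 42.6 CPM, and the other 6 ran from 14.2 to 21.2 CPM. In Ta, Ppargc1a was 0.55 ± 0.25 higher at 6 months and 0.56 ± 0.25 at 12 months than at 1 month (SE, edgeR adjusted p = 0.128 and 0.160).

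**Figure D3:**
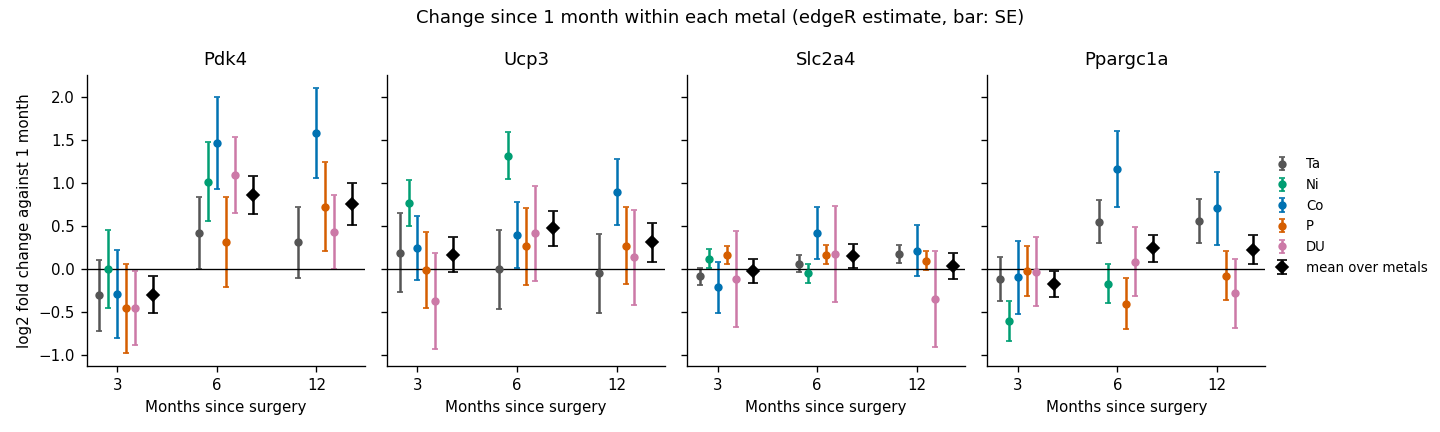
Log2 fold change of each gene against 1 month within each metal, and averaged over metals (black diamonds), at 3, 6 and 12 months. Points are edgeR estimates and bars their SE. For Pdk4 all 5 metals lie above 0 at 6 months and all 4 at 12 months, with averages of 0.86 and 0.76.

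How the genes moved together was measured over the 150 libraries on log2 CPM after subtracting the group mean, which removes the differences between metals and times. The highest rho of the 6 pairs joined Pdk4 and Ucp3. It was rho = 0.60 and r = 0.54 (both adjusted p at most 3e-05 over the 6 pairs, permutation within groups), and the sign was positive in 17 of 19 groups. Leaving out the 2 libraries farthest from the median of Pdk4 gave r = 0.50, and leaving out the 10 libraries that stood apart gave rho = 0.58 and r = 0.57. Within the 4 times rho was 0.67, 0.53, 0.77 and 0.42 at 1, 3, 6 and 12 months, and within the metals 0.38 with Ta, 0.71 with Ni, 0.76 with Co, 0.61 with P and 0.51 with DU. Without the 10 libraries it was 0.66 with Ni, 0.55 with Co and 0.54 with DU. Of 12254 other genes with at least 1 CPM on average, only 3 followed Pdk4 more closely by rank than Ucp3 did, and only 2 followed Ucp3 more closely than Pdk4. Without the 10 libraries Ucp3 held place 7 among the genes closest to Pdk4, and Pdk4 place 6 among those closest to Ucp3. P at 12 months replicate 5 shows the pair, with 19.9 CPM of Pdk4 against 758 in the highest library of that group and 8.94 CPM of Ucp3 against 455. Ta at 3 months was the group with the lowest rho, -0.17. In it replicate 8 had 33.7 CPM of Pdk4, the lowest, beside 329 CPM of Ucp3, and replicate 2 had 160 CPM of Pdk4 beside 23.4 CPM of Ucp3, the lowest.

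Ppargc1a and Slc2a4 formed the second pair, with rho = 0.55 and r = 0.63 (adjusted p at most 3e-05, permutation). Both genes lay below those libraries of their group that did not stand apart in the same 8 of the 10 (not in Ni at 1 month replicate 8 or Co at 6 months replicate 1). Without all 10 rho was 0.35 and r was 0.41. Within times rho was 0.44, 0.72, 0.03 and 0.75 at 1, 3, 6 and 12 months, so the relation was not seen at 6 months. Without the libraries that stood apart the values at these times were 0.29, 0.44, 0.07 and 0.49. Within metals rho was 0.32 with Ta, 0.21 with Ni, 0.67 with Co, 0.37 with P and 0.73 with DU. Without the libraries that stood apart it was 0.27 with Ni, 0.09 with Co and 0.48 with DU.

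Slc2a4 and Ucp3, glucose entry and the fatty acid side, had r = 0.63 but rho = 0.18 (adjusted p = 0.00412 and 0.101, permutation). Without the 2 libraries farthest from the median of Slc2a4, r was 0.24. Without all 10 libraries rho was -0.14, so the positive r rests on libraries in which both were low. Within P, which has no library that stood apart, rho was -0.43, and within Ta -0.23. Ta at 6 months replicate 5 held the most Slc2a4 of its group, 664 CPM, and the least Ucp3, 34.3 CPM. Pdk4 with Slc2a4 gave rho = 0.36 and r = 0.26 (adjusted p = 2e-05 and 0.00021, permutation), and Pdk4 with Ppargc1a rho = 0.33 and r = 0.36 (0.00012 and 6e-05). Without the 10 libraries these were 0.27 and 0.29 by rho. Within metals Pdk4 with Slc2a4 ran from -0.02 with P to 0.71 with Co. Ppargc1a and Ucp3 gave r = 0.31 but rho = 0.08 (adjusted p = 0.00995 and 0.386, permutation). Without the 2 libraries farthest from the median r was 0.07, and without the 10 libraries r and rho were -0.12 and -0.11.

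**Figure D4:**
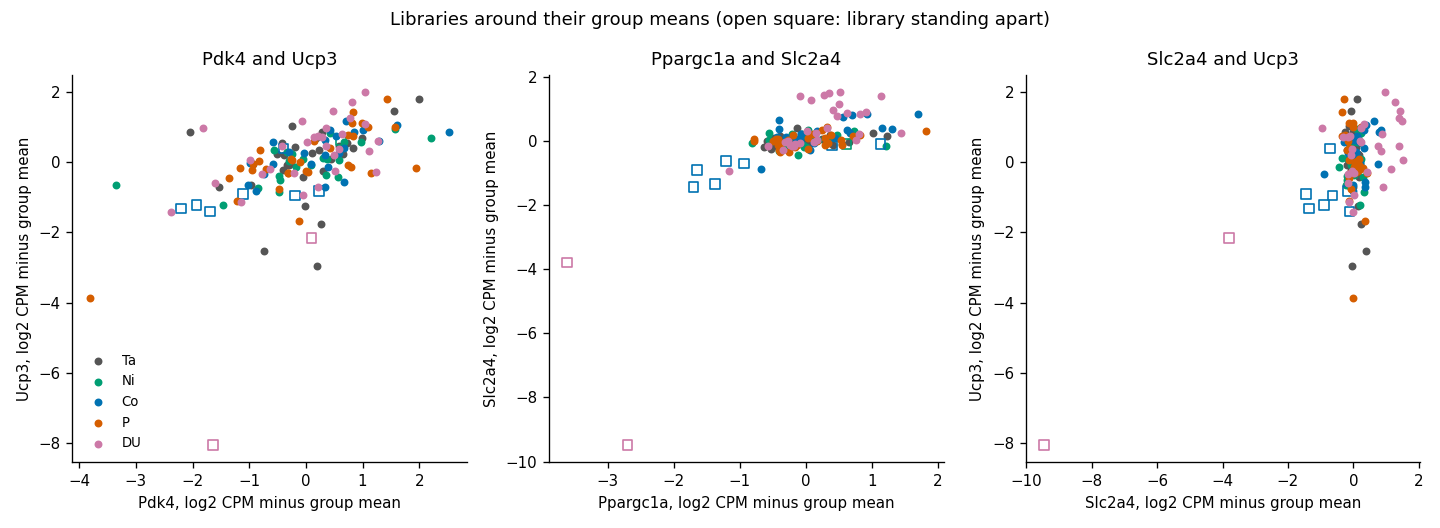
Log2 CPM minus the group mean for 3 pairs of genes in 150 libraries, coloured by metal. Open squares are the 10 libraries that stood apart. Pdk4 and Ucp3 rise together through the main cloud (rho = 0.60), whereas Slc2a4 with Ucp3 is drawn out by a few libraries (r = 0.63, rho = 0.18).

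The spread within groups set the fuel genes apart from most others as a description, with no test. The SD of log2 CPM around the group mean was 1.18 for Ucp3, 1.05 for Pdk4, 1.02 for Slc2a4 and 0.74 for Ppargc1a, at the percentiles 96.2, 93.6, 92.8 and 81.4 of 12255 genes, whose median was 0.46. Without the 10 libraries Pdk4 (1.01, percentile 96.6) and Ucp3 (0.87, percentile 94.2) stayed among the most variable, and Slc2a4 dropped to 0.26 (percentile 22.8). Ppargc1a then had 0.51 (percentile 73.1). Differences between the 19 groups held 31.3% of the variance of Pdk4, 28.0% for Ppargc1a, 17.0% for Ucp3 and 13.5% for Slc2a4, beside a median of 24.5% over all genes. Without the 10 libraries the shares were 25.1% for Pdk4, 22.8% for Ppargc1a, 14.3% for Ucp3 and 20.5% for Slc2a4, which put Slc2a4 above Ucp3.

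Measures of library make-up moved with some of the genes. One was the share of counts in the 100 genes with the highest median CPM in the Ta libraries, the 4 fuel genes left out. These need not be the most abundant genes of each library. The share ran from 12.8% to 66.4% in the libraries that stood apart and from 38.5% to 68.5% in the rest. Over 150 libraries it gave r = 0.74 with Slc2a4, 0.62 with Ucp3 and 0.60 with Ppargc1a (each adjusted p = 3e-05 over 12 relations, permutation), and 0.14, 0.31 and 0.07 without the 10 libraries. The rho values were smaller, at 0.33, 0.36 and 0.38 (adjusted p = 0.0084, 0.00048 and 0.00048, permutation), and -0.04, 0.17 and 0.07 without the 10 libraries. With Pdk4 r was 0.12 (adjusted p = 0.397). By rank, Ppargc1a and Slc2a4 were lower where the TMM factor was higher, at rho = -0.48 and -0.26 (adjusted p = 0.00012 and 0.00525, permutation), or -0.32 and -0.17 without the 10 libraries. By r the values were -0.45 and -0.04 (adjusted p = 3e-05 and 0.959, permutation), so that of Slc2a4 did not pass. Without the 10 libraries r was -0.32 and -0.24. CPM is divided by that factor, so a negative relation is partly built in, and how large that part is was not tested. Total counts gave rho from 0.02 to 0.15 with the 4 genes, and none of these passed (adjusted p from 0.161 to 0.779, permutation). The part of these measures in the results above was not tested beyond leaving out the 10 libraries.

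The genes most like each member by rank over the 150 libraries are known here only by identifier. For Pdk4 they were ENSRNOG00000000302 (rho = 0.65) and ENSRNOG00000010682 (0.61), and the most opposed was ENSRNOG00000014363 (-0.52). For Ucp3 they were ENSRNOG00000009197 (0.73) and ENSRNOG00000016448 (0.61), and the most opposed was ENSRNOG00000004624 (-0.54). Slc2a4 was most like ENSRNOG00000008289 (0.86) and ENSRNOG00000017032 (0.85) and most opposed to ENSRNOG00000054775 (-0.66). Ppargc1a was most like ENSRNOG00000036742 (0.78) and ENSRNOG00000012209 (0.77) and most opposed to ENSRNOG00000000981 (-0.69). These rank correlations share library depth and scaling with the members. Without the 10 libraries the first gene named for Pdk4, Ucp3 and Slc2a4 remained first (rho = 0.62, 0.67 and 0.78), and for Ppargc1a another gene, ENSRNOG00000017297, came first (0.67).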

How the data were processed

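RNA was sequenced from 150 gastrocnemius samples in 19 groups of metal and time. Stranded total RNA libraries were read in pairs of 100 bases, per the labels' protocols. The authors deposited 1 table of raw counts per gene, aligned with HISAT2 2.0.5 to Rnor_6.0, with featureCounts 1.5.0-p3 for counting, per the submitters' processing notes. Annotation release and strand setting are not given in the sources used here. Reads of overlapping antisense genes may be included. Totals were 12674115 to 21921859 counts, with 14 to 919 counts of Ppargc1a per library.

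From the counts, edgeR 4.0.16 (R 4.3.3; filterByExpr, TMM, robust quasi-likelihood test, Benjamini-Hochberg over all genes tested, threshold 0.05) compared each metal with Ta of its time (the 2 groups alone), each later time with 1 month (all libraries of a metal) and all 19 groups in 1 model. SE is the log2 fold change over the root of F. Log2 CPM used a prior count of 2. Correlations were taken on deviations from group means with 100000 permutations within groups (scipy 1.17.1, numpy 2.4.6). The smallest p these can give is 1e-05. Code was tested on simulated data. Alternatives were DESeq2 1.42.0, limma 3.58.1, DESeq2's size factors (RLE), no filter, a replicate block, all 150 libraries together, and leaving libraries out. The averages over metals or times, the group means without libraries that stood apart, the leave-one-out fits over time and the removal of all 10 libraries that stood apart were added after the data were seen.

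The members and lists were chosen with earlier results of these data known. The named genes are the 4 members and, for each, the 2 genes with the highest and the 1 with the lowest rho (mean of at least 1 CPM). The reference table pairs 0 of 32545 identifiers with symbols, so 6 pathway lists and 7 marker lists were not analysed here. Promoters are RefSeq's for GRCr8, with 3 of 4 members matched (Pdk4, Ppargc1a, Ucp3). Replicate numbers are shared across groups, and deviations of same-numbered libraries correlated above 0.1 in every pair only for Co against Ta at 3 months (8 of 8, lowest 0.109). There the block changed no call. No pair of libraries of a group agreed within sampling noise.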

Additional observations from a re-analysis of the deposited data

Results flagged for a closer look

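In 15 of 76 combinations of gene and group, the highest or lowest library lay apart from the rest of its group by Dixon's criterion, which chance meets in about 1 in 20 groups. For Pdk4 these were Ni at 1 month replicate 5 (59.3 CPM, low) and P at 12 months replicate 5 (19.9 CPM, low). For Ucp3 they were all low, namely Ta at 6 months replicate 5 (34.3 CPM), Ta at 12 months replicate 3 (88.3 CPM), P at 12 months replicate 5 (8.94 CPM) and DU at 3 months replicate 2 (0.0824 CPM). Slc2a4 was high in Ta at 6 months replicate 5 (664 CPM) and low in DU at 3 months replicate 2 (0.165 CPM) and DU at 12 months replicate 6 (20.1 CPM). Ppargc1a was high in Ta at 12 months replicate 3 (38.1 CPM), Ni at 3 months replicate 8 (17.98 CPM), Co at 6 months replicate 1 (42.6 CPM), P at 3 months replicate 4 (59.2 CPM) and DU at 6 months replicate 3 (26.4 CPM), and low in DU at 3 months replicate 2 (1.73 CPM). In 5 of the 15 the library is among the 10 that stood apart over all genes. In 3 libraries outside those 10, more than 1 gene was involved. These were Ta at 6 months replicate 5 (Slc2a4 high, Ucp3 low), Ta at 12 months replicate 3 (Ppargc1a high, Ucp3 low) and P at 12 months replicate 5 (Pdk4 and Ucp3 low).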

How the results depend on the processing

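Ppargc1a had 14 to 919 counts per library, and how far counting error limits its results was not tested. Its SEs against Ta ran from 0.17 to 0.46, beside 0.26 to 0.60 for Pdk4, 0.28 to 0.77 for Ucp3 and 0.09 to 0.65 for Slc2a4. Against Ta, the count of calls among the 60 tests was 0, and 1 with voom weights or with all 150 libraries in 1 model (Ucp3 with DU at 3 months, -1.21, adjusted p = 0.0390). Over time it was 3 of 56, 1 without a filter or without all libraries that stood apart, and 5 with DESeq2. The highest Ppargc1a estimate over time, Co at 6 months against 1 month, was 1.16 ± 0.44 (SE, edgeR adjusted p = 0.0534). It passed with DESeq2 (1.16, adjusted p = 0.0297) and in the edgeR model of all 150 libraries (1.12, adjusted p = 0.00897). Without the libraries that stood apart it was 0.55 (edgeR adjusted p = 0.211). Pdk4 with Co at 6 and 12 months against 1 month was 1.47 (adjusted p = 0.0652) and 1.59 (0.0549) without a filter and 1.37 and 1.32 without the libraries that stood apart. Leaving out 1 library gave 1.21 to 1.77 and 1.40 to 1.89, and 1.198 to 1.45 for Ucp3 with Ni, whose value in the model of all 150 libraries was 1.32 (adjusted p = 0.0853). Ucp3 with Co against Ta over its times was -0.64 (adjusted p = 0.0534) without a filter and -0.42 without the libraries that stood apart. Voom weights took Pdk4 with Ta over all its times from an adjusted p of 0.381 to 0.00414. The cause of these shifts was not tested.

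The replicate block took the calls over time to 2 (Pdk4 with Co at 6 months, 1.38, adjusted p = 0.0711). It also brought Pdk4 with DU over all its times to an adjusted p of 0.0334. In the model of all groups the count rose from 1 to 2 with the block (Ppargc1a, metal effect differing over time, 0.0302) and to 2 without the libraries that stood apart (Ppargc1a, time in Ta, 0.0275). The block with the group mean subtracted gave rho = 0.31 for Slc2a4 with Ucp3. The labels do not say what replicates of the same number share. The median correlation of their deviations ran from -0.265 for P against Ta at 12 months to 0.311 for P against Ta at 3 months. It was 0.163 for Co against Ta at 3 months.

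Directions turned for some averages and correlations. By r, Slc2a4 with Ucp3 went from 0.63 to -0.17 and Ppargc1a with Ucp3 from 0.31 to -0.12 without the libraries that stood apart. Without the libraries that stood apart, Ppargc1a with Co and DU against Ta averaged 0.0020 and 0.090, Slc2a4 with Co and DU 0.15 and 0.031, Slc2a4 at 3 months against 1 month 0.079, and rho was -0.11 for Ppargc1a with Ucp3 and -0.14 for Slc2a4 with Ucp3. The latter was -0.024 with no group mean subtracted. Without DU at 3 months replicate 2 and Co at 6 months replicate 1, Ppargc1a with DU averaged 0.043, Slc2a4 at 3 months 0.013, and the SD of Slc2a4 was 0.51, or 0.26 without all 10. Ucp3 lay below 0 against Ta in 14 of 15 comparisons in every fit of all libraries.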
